A study of Mus musculus with 2 samples.

Results

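Of 5628 macrophages and other cells sorted from the mouse small intestine, 162 carried the transcripts of dividing cells. They were chosen by a rule on 8 genes of the mitotic programme: among cells in which 200 or more genes were detected and mitochondrial transcripts did not exceed 10%, a cell was counted as cycling when Top2a, Mki67, Birc5, Cdk1, Ube2c, Ccnb2, Cenpf and Nusap1 together gave at least 3 unique molecular identifiers (UMIs, 1 per captured transcript). The wild-type library held 129 of them among 3016 cells and the Ccr2-/- library 33 among 2612. The levels of these 8 genes are therefore a description of how the cells were selected and not a finding.

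The cells came from 2 libraries made with the 10x Genomics 3′ v2 chemistry, which counts transcript ends. The wild-type group was C57BL/6J males bought from Janvier, and the knockout group was CCR2-/- animals of JAX strain 004999 bred in-house, so that genotype and animal source cannot be told apart; the ages of both and the sex of the knockout animals are not given in the sources used here. For each genotype 3 to 4 intestines, stripped of mucus and epithelium and digested with Liberase, were pooled into 1 library, and live CD45+ CD11b+ MHCII+ CD64+ cells were sorted after exclusion of CD3, TCRb, B220, SiglecF, Ly6C and Ly6G. The wild-type cells were run in 2 lanes, which are technical divisions of 1 sample. With 1 library per genotype there is no replicate and no test, and all intervals below are exact 95% intervals that cover counting error only.

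Most macrophages of the intestinal wall are replaced throughout life by blood monocytes, which use the chemokine receptor CCR2 to leave the bone marrow, whereas a smaller set marked by Tim-4 (Timd4), CD4 or CD163 persists and renews itself locally. A dividing cell first copies its DNA in S phase, with help from the sliding clamp Pcna, ribonucleotide reductase, the Mcm helicase and newly made histones. It then enters mitosis under Cdk1 and its cyclins, condenses its chromosomes with topoisomerase and condensin, and degrades the cyclins through the anaphase-promoting complex. Macrophages can divide while still differentiated, under signals such as the ligands of the receptor Csf1r.

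The knockout was checked first. Ccr2, on chromosome 9 from 124101950 to 124113557 (GRCm38), gave 6844 UMIs in the kept wild-type cells, 331 CPM (UMIs per 1000000 UMIs of the cells summed; 323 to 339), and 50 UMIs in the knockout cells, 6.88 CPM (5.11 to 9.07). The wild-type lanes stood at 347 and 293 CPM, and the cycling knockout cells had 0 Ccr2 UMIs. The deposited matrices held 3054 wild-type cells with 20766579 UMIs and 2774 knockout cells with 7506405 UMIs, and the kept cells had medians of 6129 and 2439 UMIs, so that the knockout was the shallower library by more than the lanes differed. Identical barcodes occurred 5 times between the wild-type lanes, 6 times between lane 1 and the knockout library and 0 times between lane 2 and the knockout library, and none belonged to a cycling cell.

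Not every selected cell was led by macrophage markers. In 153 of the 162 (123 wild-type and 30 knockout cells), the macrophage markers C1qa, C1qb, C1qc, Csf1r, Fcgr1, Mertk, Adgre1, Cx3cr1, Aif1 and Cd68 together gave at least 3 UMIs and more than the markers of all other cell types. Their macrophage marker UMIs ran from 7 to 400 with a median of 102 in the wild type, and from 7 to 130 with a median of 43 in the knockout. These 153 are called the cycling macrophages below.

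In the other 9 cells the markers of the other types together outnumbered those of macrophages. In 5 of them B cell or plasma cell genes such as Jchain and Mzb1 led, with 184 to 2787 UMIs of that list, and in 1 epithelial genes with 137 UMIs. Dendritic cell genes were the leading other list in 2, with 23 UMIs against 13 of macrophage markers in a wild-type cell and 10 against 16 in a knockout cell, which failed only on the sum of all other lists (19 UMIs). The last, a knockout cell, had 6712 of its 6997 UMIs on haemoglobin genes. These 9 cells held 8.47% of the UMIs of the cycling cells in the wild type and 28.2% in the knockout, so the comparisons with matched cells below are given for the 153 cells, and values over all 162 are named as such.

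**Figure D1:**
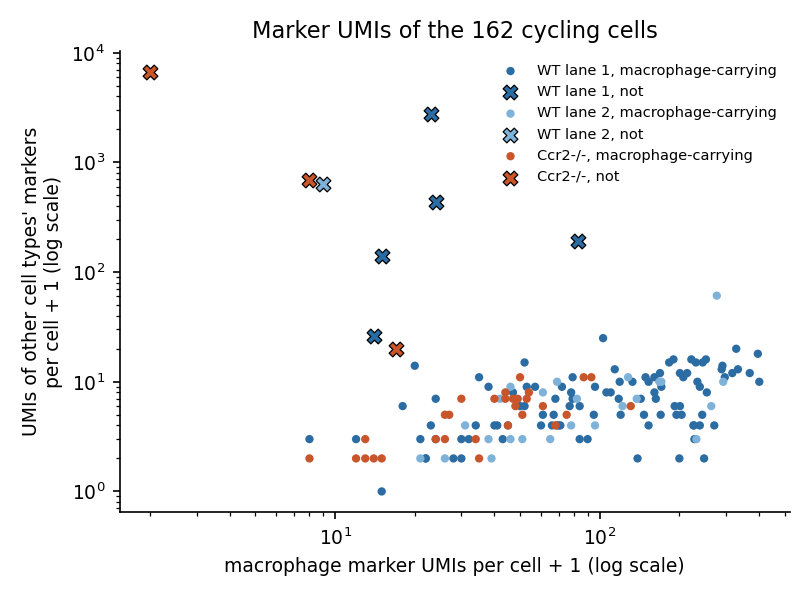
Each point is 1 of the 162 cycling cells; the horizontal axis gives its UMIs of 10 macrophage markers and the vertical axis its UMIs of the markers of 9 other cell types, both plus 1 on log scales. The 9 crosses have at most 82 macrophage marker UMIs and at least 19 UMIs of the other types, and some of them lie close to filled points; the 153 filled points reach 400 macrophage marker UMIs in the wild type and 130 in the knockout.

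The 153 cells were chosen for having more macrophage than other marker UMIs, and within them each other list had a median of 0 to 2 UMIs per cell. The T cell and innate lymphoid list had 5 of 7 measured genes at 0 in the wild type and 7 of 7 in the knockout, with at most 1 UMI in a cell. B cell and plasma cell markers reached 7 UMIs in a wild-type cell and 6 in a knockout cell, dendritic cell markers 13 and 4, and epithelial markers 46 and 1. Cd3e, Flt3, S100a8 and Olfm4 were at 0 in both libraries, and the endothelial Kdr gave 1 UMI in 1 wild-type cell. Other members of these lists were found in many cells. In the 123 wild-type cells Batf3 gave 218 UMIs in 89, Xbp1 186 in 87, Jchain 88 in 59 and Fabp2 120 in 29. There the endothelial Pecam1 gave 39 UMIs in 28, Cd79b 38 in 30, Csf3r of the neutrophil list 26 in 22 and the haemoglobin gene Hbb-bs 13 in 12. In the 30 knockout cells Batf3 was found in 8, Xbp1 in 14, Jchain in 15 and Fabp2 in 1. Hbb-bs was found in 21 of them, Pecam1 in 5, Csf3r in 5 and Cd79b in 2.

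The cycling cells made up 4.28% of the wild-type cells (3.58% to 5.06%) and 1.26% of the knockout cells (0.871% to 1.77%). The intervals did not overlap, but depth moved with this difference, and a deeper cell has more chances to give 3 UMIs of the 8 genes. The wild-type lanes also differed from each other, with 104 cells or 4.93% (4.05% to 5.94%) in lane 1 and 25 cells or 2.76% (1.79% to 4.04%) in lane 2. The interval of lane 2 lay just clear of those of lane 1 and of the knockout. Among macrophages alone the shares were 4.16% (3.47% to 4.94%) in the wild type and 1.21% (0.820% to 1.73%) in the knockout.

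When every cell was thinned at random to 2000 UMIs and the rule read again, 64 of 2868 wild-type cells passed, 2.23% (1.72% to 2.84%), and 16 of 1595 knockout cells, 1.0% (0.574% to 1.62%). This left out 148 wild-type and 1017 knockout cells with fewer UMIs. Lane 1 then stood at 2.49% (1.86% to 3.26%) and lane 2 at 1.59% (0.850% to 2.71%), so at equal depth the interval of lane 2 overlapped those of both lane 1 and the knockout. At 1000 UMIs the shares were 1.23% and 0.455%. The order of the 2 libraries was the same at each depth, while the size of the gap was not, and the spread between animals is hidden by the pooling.

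The pooled level of the 8 genes over all kept cells gave the same order without a threshold, at 129 CPM (124 to 134) in the wild type and 74.0 CPM (67.9 to 80.6) in the knockout. It is a second reading of the selecting genes and includes the cycling cells. A wild-type cell held up to 116 of these UMIs, and such clustering is not covered by the intervals. Lane 1 stood at 149 CPM and lane 2 at 81.9 CPM. On this measure lane 2 lay nearer to the knockout than to lane 1, its partner from the same cell suspension.

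**Figure D2:**
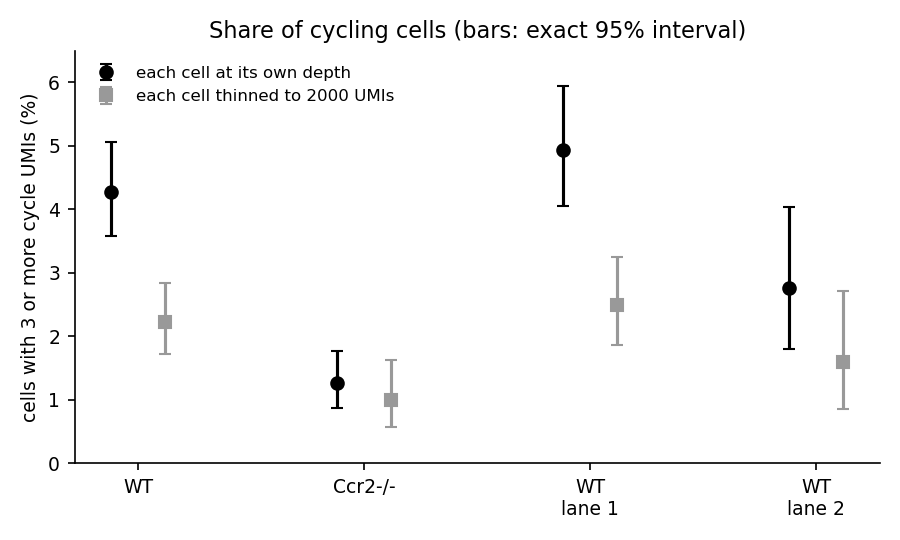
The vertical axis gives the share of kept cells, in percent, that had at least 3 UMIs of the 8 cycle genes, for the wild-type and Ccr2-/- libraries and for each wild-type lane; circles are cells at their own depth, squares cells thinned to 2000 UMIs, bars exact 95% intervals for counting error. The wild-type circle stands at 4.28% and the Ccr2-/- circle at 1.26%, and the squares at 2.23% and 1.0%.

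The 162 cycling cells were deeper than the rest of their library. Their median was 8931 UMIs and 2562 genes in the wild type, against 5695.5 UMIs and 1883 genes in cells with 0 UMIs of the 8 genes, and 4095 UMIs and 1648 genes in the knockout, against 2390 and 1084. The median mitochondrial share was 3.38% against 3.10% in the wild type and 3.84% against 4.07% in the knockout. Removal of the 98 cells that scored highest as doublets took out 1 of the 162, a knockout cell.

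Among the 8 selecting genes, Top2a, the topoisomerase that untangles replicated chromosomes, carried the largest part. In the 123 wild-type cycling macrophages it stood at 629 CPM and in the 30 knockout ones at 889 CPM, with a UMI in 90.2% and 80.0% of them. Mki67, which coats mitotic chromosomes, stood at 213 and 278 CPM, and Birc5 (survivin), a subunit of the chromosomal passenger complex, at 217 and 278 CPM. Cdk1, the kinase that starts mitosis, gave 122 and 135 CPM, and its partner cyclin Ccnb2 99.8 and 108 CPM. Ube2c, the ubiquitin-conjugating enzyme of the anaphase-promoting complex, gave 179 and 80.8 CPM, the last from 9 UMIs. The kinetochore protein Cenpf gave 167 and 153 CPM and the spindle protein Nusap1 98.1 and 153 CPM.

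The cells differed widely in how far they exceeded the threshold. UMIs of the 8 genes ran from 3 to 116 with a median of 10 in the 129 wild-type cells, and from 3 to 51 with a median of 6 in the 33 knockout cells. Exactly 3 UMIs were found in 23 wild-type and 9 knockout cells, and just outside the rule 65 and 25 cells had 2. All 8 genes were present in 16 wild-type and 2 knockout cells, while 11 and 3 cells passed on a single gene.

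Genes that the rule did not use were already higher just below the threshold, here among macrophages alone. Stmn1, the microtubule-destabilising protein stathmin, stood at 12.8 CPM in wild-type macrophages with 0 UMIs of the 8 genes, at 49.3 CPM with 2, at 150 CPM with 3 and at 954 CPM with 12 or more. In the knockout the same series was 9.79, 183, 302 and 991 CPM. Cells with 2 UMIs thus had a Stmn1 level between those of cells with 0 and with 3, and the summed S phase genes did the same, at 1061, 2040 and 3049 CPM in the wild type and 1188, 1874 and 7761 CPM in the knockout. The complement genes C1qa, C1qb and C1qc summed to 12879 CPM at 0 UMIs and 10825 CPM at 12 or more in the wild type, and to 8910 and 8399 CPM in the knockout, the last from 6 cells. The series was not steady, with lower sums of 8323 and 6594 CPM at 6 to 11 UMIs. With all cells included, the value at 12 or more was 9467 CPM in the wild type and 4339 CPM in the knockout, where 2 of the 8 cells were not led by macrophage markers.

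The promoters of the selecting genes are shown because cell-cycle genes of late S phase, G2 and mitosis are known for 2 short elements near their start sites: the cell-cycle homology region (CHR, TTTGAA), bound by MuvB complexes, and the CCAAT box, bound by NF-Y. Windows from 250 bases before to 50 bases after the start site were taken from RefSeq (GRCm38.p6), where all 8 genes matched by symbol. Matches to TTTGAA and CCAAT on either strand (read as TTCAAA and ATTGG where on the other) are in capitals; neighbouring matches can share bases, as in CCAATTGG. The 4 windows with the most matches are given 5′ to 3′ on the gene's strand, Mki67 and Cdk1 being tied with Ccnb2.
Top2a: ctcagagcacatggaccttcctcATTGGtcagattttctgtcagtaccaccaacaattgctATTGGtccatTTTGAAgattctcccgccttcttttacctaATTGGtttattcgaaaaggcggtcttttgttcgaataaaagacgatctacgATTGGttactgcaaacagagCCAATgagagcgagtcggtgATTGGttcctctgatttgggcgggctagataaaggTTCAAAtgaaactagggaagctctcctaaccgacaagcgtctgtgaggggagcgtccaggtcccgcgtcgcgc
Ube2c: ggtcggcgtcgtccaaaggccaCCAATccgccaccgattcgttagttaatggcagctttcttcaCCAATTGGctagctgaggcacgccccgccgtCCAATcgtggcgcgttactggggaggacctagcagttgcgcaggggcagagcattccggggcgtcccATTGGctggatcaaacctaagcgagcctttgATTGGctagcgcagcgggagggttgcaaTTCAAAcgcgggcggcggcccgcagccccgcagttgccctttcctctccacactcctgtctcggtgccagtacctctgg
Mki67: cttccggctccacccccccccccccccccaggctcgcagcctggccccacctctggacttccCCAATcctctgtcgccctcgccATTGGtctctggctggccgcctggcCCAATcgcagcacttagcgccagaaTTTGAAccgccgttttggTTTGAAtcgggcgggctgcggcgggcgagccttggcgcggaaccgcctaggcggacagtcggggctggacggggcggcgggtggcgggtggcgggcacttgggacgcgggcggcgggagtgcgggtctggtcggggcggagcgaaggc
Cdk1: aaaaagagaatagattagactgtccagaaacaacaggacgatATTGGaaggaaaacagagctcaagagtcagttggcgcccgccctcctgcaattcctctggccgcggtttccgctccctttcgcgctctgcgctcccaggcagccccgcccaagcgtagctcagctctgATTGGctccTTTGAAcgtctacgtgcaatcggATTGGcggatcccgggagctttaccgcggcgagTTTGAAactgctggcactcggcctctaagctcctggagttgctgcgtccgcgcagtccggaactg

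These windows lie at chr11:99024140-99024439 on the minus strand (Top2a), chr2:164769679-164769978 on the plus strand (Ube2c), chr7:135716330-135716629 on the minus strand (Mki67) and chr10:69352863-69353162 on the minus strand (Cdk1). Both elements were found in 6 of the 8 windows, 75%, against 6.95% of 32851 RefSeq promoters of the same length, of which 17.9% held TTTGAA and 37.4% CCAAT. The Birc5 and Nusap1 windows held neither string. A match is a string of letters and not a measured binding site.

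For the genes outside the rule, each cycling macrophage was compared with the 3 macrophages of its own lane that had 0 UMIs of the 8 genes and the nearest total UMIs. This set 123 wild-type cells (1162571 UMIs) against 369, and 30 knockout cells (111373 UMIs) against 90. The medians of total UMIs were 8662 against 8652 in the wild type and 3560.5 against 3559.5 in the knockout, so depth was even within each library. Ratios are log2 of summed CPM with 10 CPM added to both sides, which understates the change of low genes.

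Most tested genes of DNA replication and mitosis were higher in the cycling cells of both libraries. Of 11 replication genes tested, 10 were higher in the cycling cells of both libraries and 8 by at least 2-fold. Of 50 tested genes of the hand-made G2 and mitosis list, which includes some of the rule's genes and chromatin genes, 47 were higher in both and 38 by at least 2-fold. All 5 rule genes tested passed 2-fold in both, which the choice of comparison cells fixed, so the rule genes in this count are not a finding. All genes tested outside the cycle lists had a median log2 ratio of 0.04 in the wild type and 0.08 in the knockout. Of these 2155 genes, 837 were higher in both libraries and 16 by at least 2-fold.

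Stmn1, the only label marker outside the rule, gave 645 CPM in wild-type cycling macrophages (lane 1 618, lane 2 790) and 557 CPM in knockout ones, against 11.3 and 18.0 CPM in their matched cells. It was detected in 83.7% and 60.0% of the cycling cells and in 8.94% and 4.44% of the matched cells. The label of cycling cells is therefore met by a gene that did not select them. Hmgb2, a chromatin protein of dividing cells, gave 1197 against 120 CPM and 1652 against 162 CPM (log2 ratios 3.21 and 3.27). The tubulin subunits of the spindle followed, Tuba1b with log2 ratios of 2.17 and 3.30 and Tubb5 with 2.13 and 2.92, as did the histone variant H2afz with 1.54 and 1.66.

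The size of the difference varied among replication genes. The Pcna-associated factor Pclaf, listed under its older symbol 2810417H13Rik, gave 449 UMIs in the wild-type cycling cells and 3 in the matched cells, a 432-fold ratio of CPM with a counting interval of 147 to 2102. In the knockout it gave 41 against 5 UMIs, 24.6-fold (9.72 to 79.7). Pcna itself had log2 ratios of 2.03 and 2.35, and Slbp, which binds histone mRNA, 1.27 and 1.93. Fam111a, a protease that acts at replication forks, was closer to its matched cells, at 0.85 and 0.58. The replication-dependent histone gene Hist1h2ap was at 442 against 9.54 CPM in the wild type and at 224 against 0 CPM in the knockout, where 25 UMIs stood against 0. Reads of near-identical histone, tubulin and Ptma copies may be divided or dropped in the counting, so these levels are uncertain.

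Regulators of entry into the cycle were less uniform. The G1 cyclin Ccnd2 was slightly lower in cycling cells, with log2 ratios of -0.18 and -0.44, and Ccnd1 slightly higher, 0.40 and 0.41, although lane 2 alone gave -0.05. Cdkn1a (p21), an inhibitor of cyclin-dependent kinases, gave -0.15 in the wild type and 0.90 in the knockout, where it stood at 620 against 326 CPM. Cdk4, the partner of the D cyclins, gave 99.8 against 42.0 CPM in the wild type but only 3 UMIs in the knockout cells.

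Ccne2 and Cdkn2c were singled out after their values had been seen. The S phase cyclin Ccne2 gave 46 UMIs against 0 in the wild type, at least 44.2-fold when the empty side is set to 3 UMIs, and 14 against 0 in the knockout, at least 14-fold. The kinase inhibitor Cdkn2c (p18) gave 82 against 18 UMIs, 13.1-fold (7.82 to 23.3), and 11 against 3, 11-fold (2.90 to 61.4). Both were thus higher in the cycling cells of each library.

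By the summed UMIs of 89 replication genes and 26 mitosis genes, 80 of the 129 wild-type cells had more replication than mitosis UMIs, 62.0% (53.1% to 70.4%), and 18 of the 33 knockout cells, 54.5% (36.4% to 71.9%). The intervals of the libraries overlapped. Lane 2 had 20 of 25, 80.0% (59.3% to 93.2%), and lane 1 60 of 104, 57.7% (47.6% to 67.3%), which overlapped too. Without the 9 other cells the shares were 61.0% and 56.7%. The mitosis list includes genes of the rule, so its UMIs were in part fixed by the selection. The replication list was counted without rule genes. The lists also differ in length and in the level of their genes, so these are proportions by list and not measured phases.

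**Figure D3:**
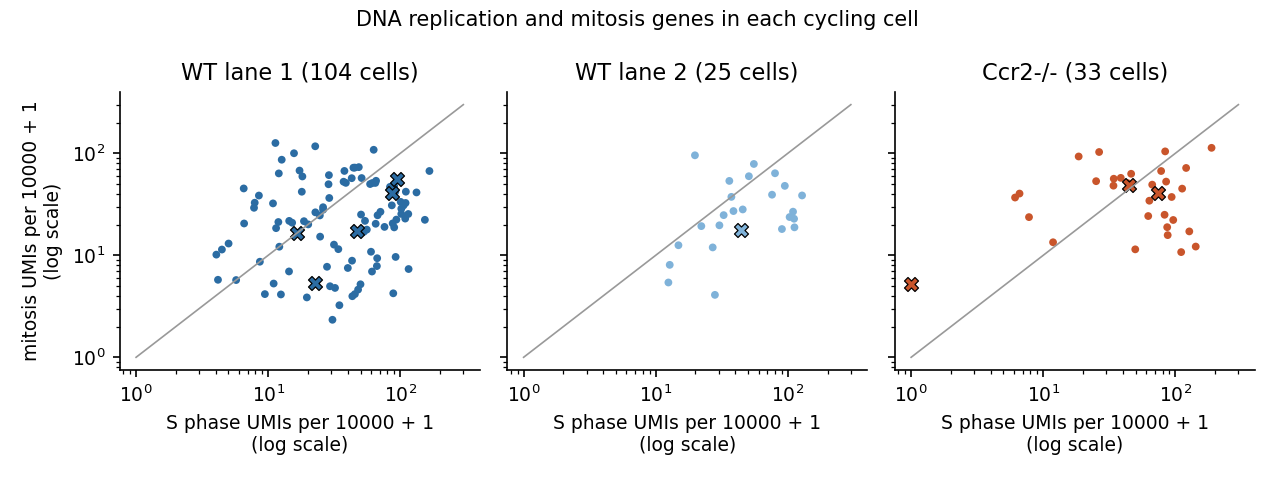
Each point is 1 cycling cell of wild-type lane 1 (104), wild-type lane 2 (25) or the Ccr2-/- library (33); axes give UMIs of the replication list and of the mitosis list per 10000 UMIs of the cell, plus 1, on log scales, with the line of equal values, and crosses are the 9 cells outside the cycling macrophages. Cells lie on both sides of the line in each panel, with 57.7%, 80.0% and 54.5% of cells having more replication UMIs. The mitosis list includes genes of the selecting rule, and the replication list was counted without them.

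The monocyte gene Ccr2 was near the level of matched cells in the summed CPM of the wild-type cycling macrophages, but was detected in more of them. It gave 348 CPM against 303 CPM in matched cells (log2 ratio 0.19), from 372 against 305 CPM in lane 1 and 219 against 293 CPM in lane 2. A UMI was found in 67.5% of the cycling cells and 47.2% of the matched cells. In lane 2 the share (62.5% against 40.3%) went the other way from the CPM, so no order is read there.

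At 2000 UMIs per cell, Ccr2 was found in 50 of 122 wild-type cycling macrophages, 41.0% (32.2% to 50.3%), and in 29.3% (27.5% to 31.3%) of all macrophages with 0 UMIs of the 8 genes. In 29 lymphoid-marker cells, a type used to gauge free RNA although some lymphocytes express Ccr2, it was found in 20.7% (7.99% to 39.7%), at a median of 6964 UMIs before thinning, where the cycling cells had 8662. The interval of the cycling cells lay above that of the 0-UMI cells and overlapped that of the lymphoid cells.

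The other monocyte genes gave no common direction, and none of the 12 on the list reached 50 CPM in both libraries. Plac8, which monocytes express strongly, gave 224 against 245 CPM in the wild type, but 1 cell held 93.0% of its UMIs in lane 2, where it gave 631 against 192 CPM; lane 1 gave 148 against 255 CPM. At 2000 UMIs per cell it was found in 13.9% of cycling cells and 24.1% of lymphoid-marker cells, so the cycling share was not above theirs. Lymphoid-marker cells may hold Plac8 RNA of their own, so they gauge its free RNA poorly. The surface protein Ly6a gave 86.0 against 57.5 CPM, Anxa2 62.8 against 45 CPM, Lsp1 84.3 against 70.3 CPM, Ms4a4c 73.1 against 73.6 CPM and S100a6 36.1 against 55.4 CPM. S100a4 and Vcan gave 8 and 3 UMIs. Ly6c2, whose product the gate excluded, and Chil3 were at 0 in the 123 cells, against 11 and 8 UMIs in their matched cells. In the 30 knockout cycling macrophages Plac8 gave 1 UMI against 22, a ratio of 0.136 (0.00330 to 0.843), and Lsp1, the monocyte gene with the most UMIs there, gave 5 against 2. Over all 33 knockout cycling cells Plac8 gave 41 UMIs, so cells outside the macrophages held it too.

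Timd4, which marks long-lived intestinal macrophages, was lower in wild-type cycling macrophages and not in knockout ones. In the wild type it gave 18.1 against 39.9 CPM (log2 ratio -0.83), with -0.85 in lane 1 and -0.76 in lane 2, and a UMI in 11.4% against 21.7% of cells. In the knockout it gave 215 against 189 CPM (0.18) and a UMI in 36.7% against 41.1% of cells. At 2000 UMIs per cell it was found in 4.10% (1.34% to 9.31%) of wild-type cycling cells and 8.22% (7.13% to 9.43%) of the 0-UMI cells, and in 0 of 29 lymphoid-marker cells. The wild-type value rests on 21 UMIs and the knockout value on 24, and the difference between the libraries was not tested.

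Cd4 showed the same arrangement, with 54.2 against 86.1 CPM in the wild type (log2 ratio -0.58; lanes -0.59 and -0.55) and 207 against 192 CPM in the knockout (0.10). At 2000 UMIs per cell the shares were 9.84% (5.19% to 16.6%) of wild-type cycling cells against 18.2% (16.6% to 19.8%), and 36.4% (17.2% to 59.3%) against 34.5% in the knockout. In lymphoid-marker cells, some of which can express Cd4 themselves, it was found in 13.8% (3.89% to 31.7%) and 17.2%, so the wild-type cycling share was not above theirs. The scavenger receptor Cd163 did not follow in summed CPM, with 31.8 against 20.6 CPM in the wild type and 189 against 120 CPM in the knockout. At 2000 UMIs per cell it was not found in more cells. The shares were 4.92% of wild-type cycling cells against 6.33% of the 0-UMI cells, and 18.2% against 18.6% in the knockout, with overlapping intervals.

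Of the other resident genes, the mannose receptor Mrc1 gave log2 ratios of 0.07 and 0.28, the chemokine Pf4 0.19 and 0.06, and Gas6, a ligand of the receptors that clear dying cells, -0.08 and 0.44. Igf1 gave -0.24 in the wild type and 0.39 in the knockout. F13a1 gave -0.10 and 1.46, but 1 cell held 69.2% of its 13 knockout UMIs. Folr2, Lyve1, Cbr2 and Cd209f gave 5, 7, 14 and 1 UMIs in the wild-type cells and at most 2 in the knockout cells, and Vsig4 gave 0. Of the 4 resident genes that reached 50 CPM in both libraries (Mrc1, Pf4, Gas6 and Cd4), 2 were higher in both libraries, with median log2 ratios of 0.00 and 0.19 beside 0.04 and 0.08 for all genes tested.

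**Figure D4:**
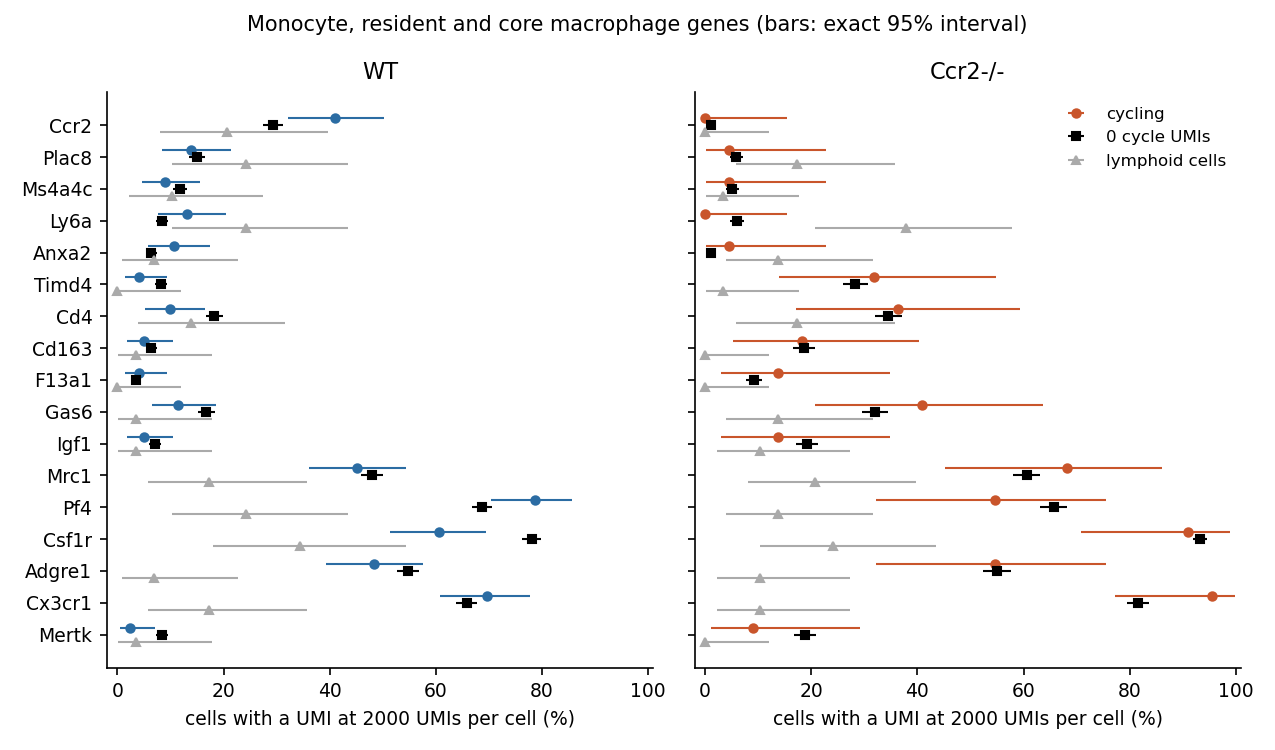
The horizontal axis gives the share of cells, in percent, with a UMI of each gene after thinning to 2000 UMIs per cell, for the cycling macrophages (circles), macrophages with 0 UMIs of the 8 cycle genes (squares) and lymphoid-marker cells (triangles), wild type on the left and Ccr2-/- on the right, with exact 95% intervals. The intervals of circle and square lie apart in the wild type for Ccr2 (41.0% against 29.3%), Csf1r (60.7% against 78.1%), Cd4 (9.84% against 18.2%) and Mertk (2.46% against 8.4%). The Cd4 intervals nearly touch, at 16.55% and 16.60%, in 1 random draw, and the Mertk value rests on 3 of 122 cycling cells. Ccr2 is at 0 in the 22 cycling cells of the Ccr2-/- library, which allows a share of up to 15.4%.

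The genes were also read in combination, with any UMI at full depth counted. Of the 123 wild-type cycling macrophages, 45.5% (36.5% to 54.8%) had UMIs of Ccr2 or Plac8 and none of Timd4, Cd4 or Cd163, against 36.0% (31.1% to 41.2%) of the matched cells. The reverse pattern was found in 12.2% (6.99% to 19.3%), against 28.7% (24.2% to 33.6%). Both kinds together were found in 29.3% of the cycling cells and 20.3% of the matched cells, and neither in 13% and 14.9%. Lanes 1 and 2 of the wild type gave 45.5% and 45.8% for the first pattern and 12.1% and 12.5% for the second. The 29 lymphoid-marker cells gave 44.8% (26.4% to 64.3%) for the first pattern and 13.8% for the second, so neither wild-type share stood apart from theirs, and free RNA in these patterns was not tested. Lymphoid-marker cells may hold Ccr2, Plac8 or Cd4 RNA of their own.

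In the knockout, 76.7% (57.7% to 90.1%) of the 30 cycling macrophages had UMIs of Timd4, Cd4 or Cd163 alone, against 65.6% (54.8% to 75.3%) of the matched cells. The pattern with Ccr2 or Plac8 alone was found in 0 of the 30, which allows up to 11.6%, and in 4.44% of the matched cells. In 42 lymphoid-marker cells of this library the patterns were found in 26.2% (13.9% to 42.0%) and 19.0%. Ccr2 is the gene deleted in this library, so the 2 libraries are not compared on this pattern.

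The share of cycling cells among cells with a given gene was read over all cells, with the gene thinned to 2000 UMIs per cell. In the wild type 5.76% (4.32% to 7.50%) of 886 Ccr2-positive cells were cycling and 4.02% (2.40% to 6.28%) of 448 Plac8-positive cells. Of 214 Timd4-positive cells 2.34% (0.763% to 5.37%) were cycling, of 494 Cd4-positive cells 2.43% (1.26% to 4.20%) and of 179 Cd163-positive cells 3.35% (1.24% to 7.15%). The Ccr2 interval and the Cd4 interval did not overlap, whereas those of Timd4 and Cd163 overlapped that of Ccr2. The Ccr2-positive cells were also deeper, with a median of 7317 UMIs against 5307 for Timd4 and 5243 for Cd4. Among macrophages alone the shares were 5.71% for Ccr2, 2.34% for Timd4 and 2.45% for Cd4.

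With the 8 cycle genes also read at 2000 UMIs, the shares were 3.05% (2.02% to 4.40%) for Ccr2, 1.34% (0.493% to 2.89%) for Plac8, 1.01% (0.329% to 2.35%) for Cd4, 1.12% (0.136% to 3.98%) for Cd163 and 0 of 214 for Timd4, which allows up to 1.71%. At this depth the Ccr2 and Cd4 intervals overlapped and the Ccr2 and Timd4 intervals did not. For the knockout the gate gene was read at 2000 UMIs and the 8 cycle genes at full depth. The shares were then 1.62% for Timd4, 1.51% for Cd4 and 1.41% for Cd163. Cells with the extracellular matrix gene Vwa1 gave 0.874% (0.284% to 2.03%), beside 1.57% (1.02% to 2.31%) of all cells with at least 2000 UMIs. All of these knockout intervals overlapped.

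The small wild-type gates gave wide intervals. Cells with the chemokine Ccl24 were cycling in 3.40% (1.48% to 6.60%) of 235 cells in the wild type and 1.95% (0.534% to 4.92%) of 205 in the knockout. Folr2 gave 2 of 33 cells, Lyve1 0 of 39 and Cd209a, a lectin shared with dendritic cells, 6 of 157.

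Genes that define macrophages were lower in the cycling macrophages of both libraries. Of 11 core macrophage genes tested, 10 were lower in both, with median log2 ratios of -0.35 and -0.36, beside 599 of all 2155 genes tested (837 higher in both and 719 in opposite directions). The lipid carrier Apoe gave 13694 against 21250 CPM in the wild type and 8458 against 15924 CPM in the knockout (-0.63 and -0.91), and lysozyme Lyz2 gave -0.59 and -0.71. The complement genes gave -0.36 and -0.18 (C1qa), -0.29 and -0.72 (C1qb) and -0.22 and -0.25 (C1qc). None of the 10 passed 2-fold in both libraries.

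Among the receptors, Csf1r, through which macrophages receive their main growth and survival signal, gave 663 against 897 CPM in the wild type (lanes -0.36 and -0.76) and 1473 against 1650 CPM in the knockout (-0.16). At 2000 UMIs per cell it was found in 60.7% (51.4% to 69.4%) of wild-type cycling cells and 78.1% (76.3% to 79.7%) of the 0-UMI cells, beside 34.5% of lymphoid-marker cells. Fcgr1, which encodes the CD64 used in the sort, gave -0.45 and -1.47, the last from 4 UMIs, a ratio of 0.307 (0.0798 to 0.852). Adgre1 (F4/80) gave -0.33 and -0.47, although lane 2 alone gave 0.01, and Mertk, which takes up dying cells, gave -0.40 and -0.61 from 23 and 4 UMIs. Cx3cr1, the fractalkine receptor of intestinal macrophages, was the exception, with 678 against 622 CPM (0.12; lanes 0.10 and 0.25) and 1185 against 1051 CPM (0.17).

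The antigen presentation genes moved the same way. Of 7 MHC class II genes tested, 7 were lower in the wild type and 6 in the knockout, with medians of -0.31 and -0.36. The invariant chain Cd74 gave -0.47 and -0.69, H2-Ab1 -0.37 and -0.37, H2-Aa -0.26 and -0.34, and H2-Eb1 -0.25 and -0.36. Each of these 4 was lower in both wild-type lanes as well, and none reached 2-fold. Over all 7 the knockout ratios ran from -1.17 to 0.13, with 1 gene at least 2-fold lower. MHC class II and CD64 were both part of the gate.

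Of 14 lysosomal genes, 8 were lower in both libraries and 2 higher, with the protease Ctss at -0.43 and -0.70, Ctsb at -0.33 and -0.28 and Lgmn at -0.11 and -0.30. Psap, the saposin precursor, was higher in both, at 0.10 and 0.21. Of 13 transcription factors of macrophage identity, 10 were lower in both; among the most abundant, Cebpb stood at -0.07 and -0.44, Zeb2 at -0.15 and -0.03 and Maf at 0.05 and 0.35. Of 9 genes that mark macrophage subsets of the intestine, 8 were lower in both, among them the Notch target Hes1 (-0.65 and -0.96) and Tnfaip2 (-0.48 and -0.59).

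Immediate-early genes, which dissociation of tissue can induce, were lower as well, 9 of 13 in both libraries, with Junb at -0.61 and -0.49 and Fos at -0.15 and -0.10. Inflammatory genes were mixed, with 1 of 6 lower and 2 higher in both. The cytokine Il1b gave -0.62 and -0.40 and Cxcl2 0.04 and 0.18. Ccl4 was at -0.04 in the wild type and at 0.59 in the knockout, and Ccl3 at -0.22 and 0.23.

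A pair of lists tied to growth leaned the other way. Of 6 ribosome biogenesis genes, 5 were higher in both libraries, among them the nucleolar proteins Ncl (0.56 and 0.60) and Npm1 (0.31 and 0.18), while Ddx21 gave -0.18 and 0.32. Both tested genes of nucleotide synthesis were higher, Paics with 72.3 against 31.9 CPM and 80.8 against 35.9 CPM (0.97 and 0.98) and Nme1 with 0.32 and 0.51. Heat shock and respiratory genes are read beside the 837 of 2155 genes that were higher in both, and no direction is given for them. Of 8 heat shock genes, 4 were higher in both and 1 lower, with Hsp90aa1 at 0.41 and 0.65 and Hspa8 at 0.36 and 0.43. Of 19 respiratory genes 10 were higher in both and 1 lower, with Cox8a at 0.03 and 0.07.

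Ribosomal protein genes depended on whether the analysis was restricted to macrophages, which changed both the cycling cells and their matched cells. In the macrophages 47 of 79 were lower in both libraries and 9 higher (medians -0.05 and -0.27), whereas over all 162 cells 18 were lower in both and 32 higher (0.02 and 0.09). No direction is read for them. Interferon, glycolysis, uptake, chemokine receptor and growth factor receptor genes gave no common direction; Isg15 was at -0.42 and -0.72, Gapdh at 0.32 and 0.03, Ccr1 at -0.19 and -0.71 and Csf2rb, the shared receptor chain for GM-CSF, at -0.26 and -0.36.

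Across the 2155 genes tested in the cycling macrophages, few passed 2-fold. In the wild type 19 genes outside the cycle lists were at least 2-fold higher (0.882%) and 4 lower (0.186%), and in the knockout 112 were higher (5.20%) and 48 lower (2.23%). The minimum of 50 CPM corresponds to 58.1 UMIs in the wild-type cycling cells and 5.57 UMIs in the knockout ones, so the larger knockout numbers rest on few UMIs. In both libraries together 16 were higher (0.742%) and 2 lower (0.0928%).

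Over all 162 cells and 2199 genes the corresponding numbers were 22 higher (1.0%) and 9 lower (0.409%) in the wild type, 115 higher (5.23%) and 58 lower (2.64%) in the knockout, and 18 higher (0.819%) and 4 lower (0.182%) in both. The 2 analyses shared 12 of the higher genes (66.7% of 18 and 75.0% of 16) and 2 of the lower ones. The restriction to macrophages removed the 9 other cells and also changed the matched cells. Of the 6 higher genes lost with it, Mzb1 and Jchain are plasma cell genes. In the knockout 1 cell held 98.5% of the Mzb1 UMIs and 96.0% of the Jchain UMIs; in the wild type 1 cell held 53.0% and 72.2%. The other 4 were the secretory pathway genes Txndc5 and Prdx4, the anaphase-promoting complex subunit Anapc5 and the RNA-binding Lsm5. Of the 2 lower genes lost, Ecm1 and Reg3b, the antimicrobial lectin Reg3b had opposite signs in the wild-type lanes (-2.29 and 1.78).

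The gene outside the cycle lists with the largest ratio was Lockd, a long non-coding RNA gene just downstream of Cdkn1b (chr6:134929092-134956798, plus strand, GENCODE M21 on GRCm38). It gave 143 UMIs in the 123 wild-type cycling macrophages, 104 in lane 1 and 39 in lane 2, against 3 UMIs, all in lane 1, in the 369 matched cells. The ratio of CPM was 138 (46.1 to 675). In the knockout it gave 22 UMIs in 30 cells against 0 in 90 cells, at least 22.0-fold with 3 UMIs assumed on the empty side. It was detected in 48.0% and 36.7% of the cycling cells and in 0.813% and 0% of the matched cells, so that a Lockd UMI was almost confined to the cycling cells of these comparisons.

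The RefSeq window of Lockd, at chr6:134928842-134929141 on the plus strand, held 1 match each to TTTGAA and CCAAT, in capitals as above.
Lockd: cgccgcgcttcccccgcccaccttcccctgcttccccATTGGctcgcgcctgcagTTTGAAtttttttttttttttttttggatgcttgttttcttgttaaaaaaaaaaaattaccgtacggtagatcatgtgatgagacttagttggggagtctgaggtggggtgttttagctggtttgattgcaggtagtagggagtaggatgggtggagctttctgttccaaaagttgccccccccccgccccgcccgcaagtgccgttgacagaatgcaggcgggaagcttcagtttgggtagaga

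Of the 16 genes higher in both libraries, 10 matched a RefSeq window by symbol, of which 4 held TTTGAA, 6 CCAAT and 2 (Lockd and Ccdc34) both, beside 17.9%, 37.4% and 6.95% of all promoters. Psip1, Whsc1, 2700094K13Rik, Snrpd1, Rbm3 and Cse1l were not matched.

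Several of the other 15 genes act on chromatin or in replication although the hand-made lists lacked them. The chromatin-binding Psip1 gave 92.0 against 23.8 CPM in the wild type (log2 ratio 1.59; lanes 1.57 and 1.69) and 89.8 against 18.0 CPM from 10 UMIs in the knockout (1.83). The histone methyltransferase Whsc1 (Nsd2) gave 84.3 against 24.4 CPM and 144 against 47.9 CPM. Deoxycytidine kinase Dck, which salvages nucleosides for DNA synthesis, gave 118 against 39.6 CPM and 233 against 68.9 CPM. The histone chaperones Rbbp4 (1.07 and 1.35) and Rbbp7 (1.11 and 2.0), the histone acetyltransferase Hat1 (1.07 and 1.43) and the Smc5/6 subunit Smc6 (1.04 and 1.40) belong here too. The nuclear exporter Cse1l, which is not of this group, was also higher (1.09 and 1.55). Lanes 1 and 2 gave the same direction for each of these genes, Cse1l included, with Rbbp7 at 1.19 and 0.72.

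The remaining higher genes were the selenoprotein gene Selenoh, listed as 2700094K13Rik (187 against 55.1 CPM, and 126 against 27.0 CPM), Ccdc34 (116 against 32.8 CPM, and 144 against 32.9 CPM), the splicing protein Snrpd1 (1.16 and 1.94), the mRNA export factor Alyref (1.12 and 1.46), the cold-inducible RNA-binding Rbm3 (1.15 and 1.46), prothymosin Ptma (3357 against 1570 CPM, and 3690 against 1483 CPM) and the actin cross-linker Actn4 (1.09 and 1.25). Ptma was by far the most abundant of them. Each was higher in both wild-type lanes.

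Only Cd63 and Gnl2 were at least 2-fold lower in both libraries. Cd63, a tetraspanin of late endosomes and secreted vesicles, gave 121 UMIs, 104 CPM, in wild-type cycling macrophages against 224 CPM in matched cells, and 9 UMIs, 80.8 CPM, in knockout ones against 297 CPM. The ratios were 0.464 (0.380 to 0.563) and 0.273 (0.121 to 0.539), and the lanes gave log2 ratios of -1.03 and -1.04. Gnl2, a nucleolar GTPase of ribosome assembly, gave 37.8 against 102 CPM and 62.9 against 156 CPM, the last from 7 UMIs; its ratios were 0.372 (0.266 to 0.511) and 0.404 (0.155 to 0.892). Gnl2 thus lay below its matched cells while most tested genes of ribosome biogenesis lay above.

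**Figure D5:**
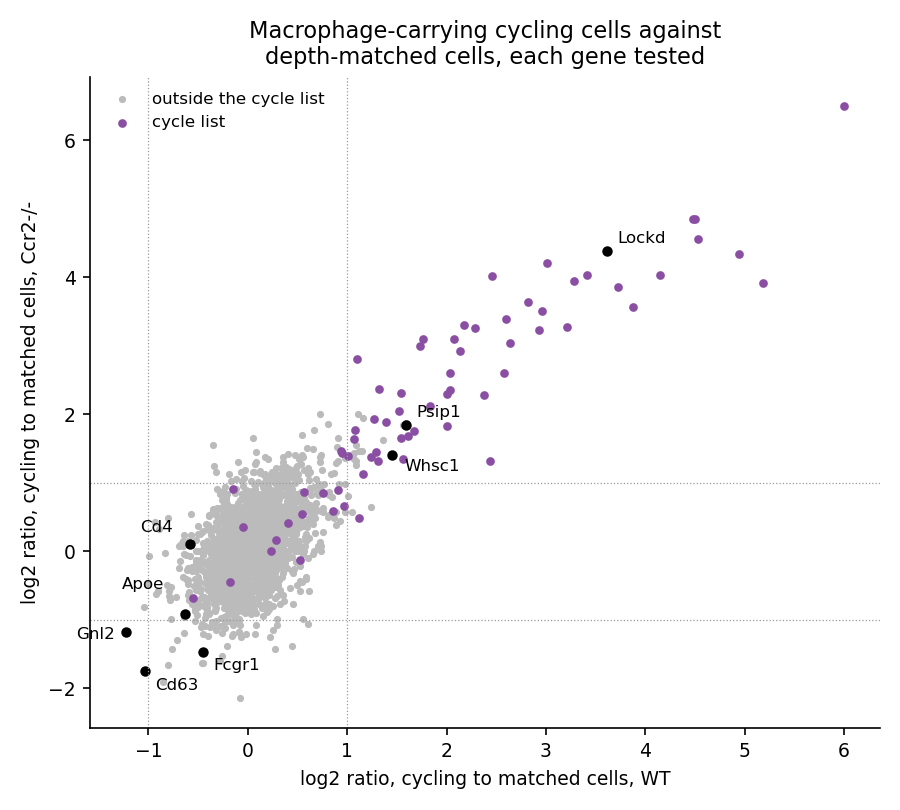
Each point is a gene tested in the cycling macrophages; the axes give the log2 ratio of cycling to depth-matched cells in the wild type (horizontal) and in the Ccr2-/- library (vertical), dotted lines mark 2-fold, purple points are cycle-list genes and black points are named. Genes outside the cycle lists gather around 0 in both libraries, Lockd stands at 3.61 and 4.38 among the cycle genes, and Gnl2 and Cd63 lie in the lower left.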

How the data were processed

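The authors deposited 1 matrix of UMI counts per genotype, whole numbers and not normalised; per the submitters' processing notes they were made with Cell Ranger 3.0.1 and mm10. The annotation, the calling of cells and any balancing of the wild-type lanes are not given in the sources used here. Lanes were read from the barcode suffix. The same pooled animals underlie all cells of a library, so no test between genotypes was made.

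Counts were read with Python 3.11.15 (numpy 2.4.6, scipy 1.17.1, pandas 2.3.3; figures with matplotlib 3.10.9). Cells with fewer than 200 genes or over 10% mitochondrial UMIs were dropped. Comparison cells had 0 UMIs of the 8 genes; 3 per cycling cell were taken without replacement, nearest in log2 total UMIs within the lane. Genes entered with a mean of at least 50 CPM in both libraries, and 2-fold in the same direction in both was the call. Thinning used 1 random draw with a fixed seed. Doublets were kept in the main analysis and removed as an alternative, up to an expected share per lane by Scrublet (scanpy 1.11.5); its automatic threshold marked 12 of 5628 cells. Lymphoid-marker cells (29 in the wild type and 42 in the knockout, medians of 6964 and 2487.5 UMIs) gauged free RNA. The ratios and calls were also run on simulated counts with known changes, drawn from summed profiles. The selection and matching of cells were not simulated.

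The cycling cells and all gene lists were chosen with earlier results of these data known. Named genes are the 8 selecting genes and Stmn1, the resident, monocyte and core macrophage lists, the genes past 2-fold in both libraries, and the up to 4 most abundant members of each other list; Ccne2 and Cdkn2c were added after their values were seen. A few members of these lists are not reported here. Alternatives covered the rule's threshold, the filters, thinning, matching, pseudocount, expression minimum, scaling and each lane; macrophages alone, and the 8 genes read after thinning, were added after the data were seen.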

Additional observations from a re-analysis of the deposited data

How the results depend on the processing

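Depth limits most values: 50 CPM is 5.57 UMIs in the knockout cycling macrophages. No paired analysis was possible because there is 1 library per genotype. Values here are for all 162 cells, and where they moved the cause was not tested. The wild-type share was 6.43% with a threshold of 2 UMIs, 2.75% with 6, 2.23% at 2000 UMIs per cell and 1.23% at 1000; the knockout share was 2.22% with 2, 0.651% with 6 and 0.455% at 1000. Of 28 share values in all, including the lanes, 14 moved beyond their interval. The 18 genes higher in both libraries became 6 with a threshold of 2 UMIs, 7 with a pseudocount of 50 CPM, 33 with a minimum of 20 CPM, 60 with no minimum and 34 with lane 2 alone as the wild type. The 4 lower genes became 0 with a threshold of 2 or a pseudocount of 50, 10 with a threshold of 6, 8 with 1 matched cell, 1 with 10, 2 without matching, 7 with 20 CPM, 11 with no minimum, 2 in macrophages and 8 with lane 2. With a threshold of 6 UMIs, 17 of the 18 higher genes were among the 26 called.

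The resident median (-0.04 and -0.03) became -0.27 and -0.34 without matching, and 0.19 in knockout macrophages. The monocyte median rested on 3 genes (-0.11 and -0.97) and changed sign: in the wild type 0.72 with 1 matched cell, 0.21 with 10, 0.30 without matching, 0.26 with 20 CPM and 0.52 in lane 2; in the knockout 1.07, 0.61 and 1.65 for the first 3, with -1.30 at 20 CPM and -0.61 with the stricter cell filter. Among gated cells, the wild-type Folr2 share and the knockout Lyve1 and Cd209a shares became 0 at 1000 UMIs, the last also in macrophages, and the knockout Cd4 share 0.634%; with the 8 genes thinned to 2000 UMIs the wild-type shares were 3.05% (Ccr2), 1.34% (Plac8), 1.01% (Cd4), 1.12% (Cd163) and 0 (Timd4). Of 616 single-gene ratios 543 kept direction and side of 2-fold, 67 fell short of 2-fold and 6 reversed: Jchain in the wild type to -0.89 in macrophages and -0.86 in lane 2, Mzb1 to -0.19 and Reg3b to 0.39 in macrophages, Reg3b to 1.78 in lane 2, and Txndc5 in the knockout to -0.18 in macrophages. The minimum of 20 CPM and no minimum cannot change a ratio. Their values, counted among the 543, were the same by construction and say nothing about stability.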
